A study of Homo sapiens with 8 samples.

Results

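The enhancers of chromosome 8 outside 2 windows were compared between the short arm (8p) and the long arm (8q) in 4 medulloblastoma (MB) lines, from ChIP-seq of H3K27Ac, a histone mark found at active enhancers. The members were all stitched enhancers of chromosome 8 except those that overlapped 127 to 130 Mb, the window around the oncogene MYC, or 133 to 135 Mb, in GRCh38. Enhancers that ended below 43 Mb were taken as short arm and those that began above 47 Mb as long arm. There were 3814 members among 88550 enhancers. Of these, MB002 had 1162 of 26072, D425 1028 of 26317, HD-MB03 671 of 15286 and UW228 953 of 20875. The short and long arm held 390 and 770 members in MB002, 401 and 624 in D425, 221 and 449 in HD-MB03, and 300 and 648 in UW228, and 2, 3, 1 and 5 members lay between the arms, respectively.

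MB002, D425 and HD-MB03 are labelled as Group 3 MB (G3-MB) and UW228 as the SHH subtype. All were untreated established lines. MB002 and HD-MB03 were grown in a stem cell medium with EGF, FGF-basic and LIF, and D425 and UW228 in DMEM with serum. With 1 library of H3K27Ac and 1 of input for each line there are no replicates, so subtype, culture and line cannot be told apart. The table of UW228 also bears another date and folder than the other tables, which cannot be told apart from its subtype either. The methods give a single set of settings for ROSE, the program that stitched the enhancers and called SEs, with no exception for UW228. The folder name of UW228 holds the word default and those of the other lines do not, so its settings may have differed, which would bear on its enhancer lengths, signals, SE calls and overlaps. Of 5 markers of G3-MB, 2 were SE-associated in each G3-MB line and none in UW228. These were OTX2, a transcription factor, in all 3, CRX in MB002 and D425, and IMPG2 in HD-MB03, whereas EOMES ranked 7158 in MB002, 13136 in D425 and 5509 in UW228. Of 5 markers of SHH MB, none was SE-associated in UW228, whereas GLI1 and PTCH1 were SE-associated in HD-MB03, with ranks of 203 and 61. The values describe these lines.

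Enhancers are stretches of DNA that raise transcription of genes on the same chromosome, and a super-enhancer (SE) is a cluster of them with very high H3K27Ac. In a ChIP-seq experiment the input is sheared chromatin that was sequenced without antibody. A stretch of the genome present in more copies gives more input reads, and it can give more H3K27Ac reads too, so that a SE call can depend on copy number. Gains of 8q, and amplification of MYC on it, are known from G3-MB. To read this from the data, the input per bp of each enhancer was divided by the median of its line, and a relative input density of 1 is thus the level of the median enhancer. The signal was H3K27Ac minus input, floored at 0, in library-normalized reads (rpm) summed over the length of the enhancer. A rank of 1 is the highest signal of a line.

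The label of the 2 windows as amplicons held in part. In MB002 the relative input density reached 46.4 inside the MYC window and 1.77 inside the other, and no member was above 3.07. In HD-MB03 it reached 154 and 114 inside the windows, and no member was above 2.25. In D425 it reached 136 inside the MYC window, whereas the 20 enhancers inside the other had a median of 2.36, with 3.12 as the highest. In UW228 neither window held an enhancer above 2.38. The window edges were fixed positions rather than measured ends. In HD-MB03 the nearest members on the proximal side lay 165 kb before the MYC window and 18.4 kb before the other, at relative input densities of 0.790 and 0.839, and the nearest enhancers just inside those edges had 1.13 and 1.07. In D425 the nearest members had 1.91 and 1.86 before the windows and 2.82 and 2.68 after them, so there the members beside the windows were not at the level of the median enhancer. The enhancers just inside those 4 edges had 1.60, 2.71, 2.43 and 2.03.

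The input of the 2 arms outside the windows differed most in D425 and UW228. In D425 both arms were above the level of the median enhancer, and 8q was higher than 8p. In UW228 8p was below that level and 8q close to it. In MB002 and HD-MB03 both arms lay close to it. The median relative input density of 8p and 8q was 0.979 and 0.947 in MB002, 1.23 and 1.45 in D425, 0.976 and 0.953 in HD-MB03, and 0.830 and 1.06 in UW228. On the log2 scale the long arm minus the short arm was 0.25 in D425 and 0.35 in UW228, but -0.05 in MB002 and -0.03 in HD-MB03. The long arm was thus higher in 2 of 4 lines, with a mean log2 ratio of 0.13 ± 0.20 (SD, n = 4 lines), and a two-sided p of 0.50 in an exact sign-flip permutation test over lines, where 0.13 is the smallest that 4 lines allow. The quartiles of single enhancers were wide against these differences, from 0.945 to 1.54 on 8p and from 1.06 to 1.95 on 8q in D425, and from 0.671 to 1.01 and from 0.836 to 1.30 in UW228.

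The arms also differed in the share of members whose relative input density was 1.5 or more. In D425 115 of 401 members of 8p (28.7%) and 287 of 624 of 8q (46.0%) reached it, beside 17.7% of all enhancers of the line. In UW228 12 of 300 members of 8p (4.0%) and 89 of 648 of 8q (13.7%) did, beside 15.7%. The shares on 8p and 8q were 6.67% and 7.14% in MB002 and 4.07% and 7.80% in HD-MB03, below the 12.5% and 11.1% over all their enhancers. Set among 39 autosomal arms, 8q of D425 had place 2 from the top and 8p place 8. The arms of chromosome 8 had places 12 and 23 in MB002, 24 and 32 in HD-MB03, and 33 and 17 in UW228, for short and long arm in turn. In UW228 the other arms ranged from 0.690 to 1.37, so that its 8p was not at the edge of that range, and the short and long arm of chromosome 3 in the same line had 0.867 and 1.19.

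**Figure D1:**
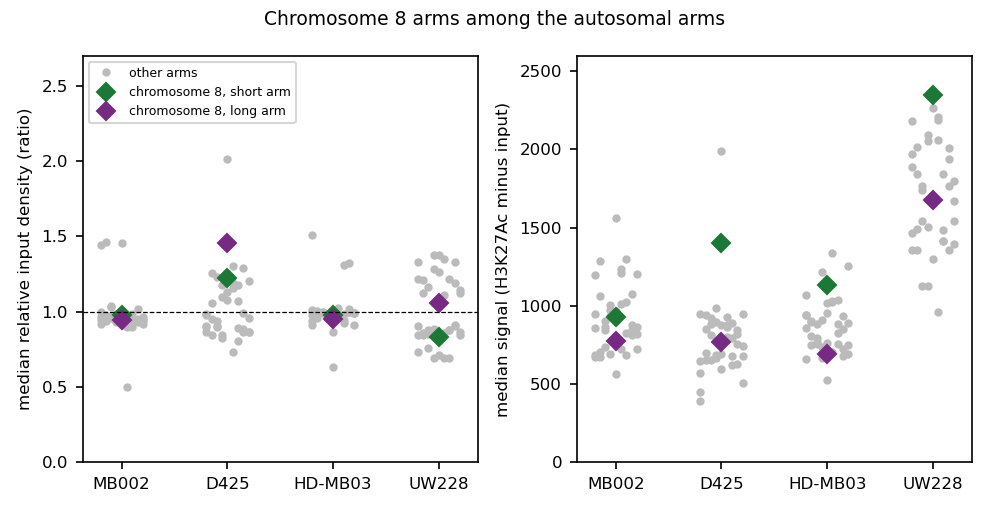
Median relative input density (left, ratio, dashed line at 1) and median signal (right, H3K27Ac minus input in rpm) of the enhancers of each autosomal arm, with 1 point per arm and line, grey for other chromosomes and diamonds for 8p (green) and 8q (purple). In D425 8q lies at 1.45, with 1 arm above it, and in UW228 8p has the highest median signal, 2347.

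Along 8q of D425 the input was not even. In bins of 10 Mb the median lay between 1.15 and 1.42 from 50 to 110 Mb, and between 1.80 and 1.95 in all 4 bins from 110 Mb to the end. The single split that most lowered the squared deviations of log2 density, a position chosen from these values, fell at 106 Mb and took up 15.1% of them, place 2 among 39 arms. The 399 members proximal to it had a median of 1.27 and the 225 distal to it a median of 1.92, and 30.3% and 73.8% reached 1.5, respectively. At the same position the 2 sides had 0.949 and 0.946 in MB002, 0.986 and 0.928 in HD-MB03 and 1.05 and 1.09 in UW228, lines for which the position was not chosen. On 8p of D425 the bins ranged from 1.06 at the end of the arm to 1.36 at 20 to 30 Mb, where 140 members lay. The highest relative input density of any member, 5.81, was that of an enhancer of 199 bp in D425 at chr8:123065883-123066082, distal to the split and short of the MYC window.

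In UW228 the last stretch of 8q was lower than the others. The bins of its long arm lay between 1.02 and 1.21 up to 140 Mb, whereas the 29 members from 140 Mb to the end had a median of 0.590, with quartiles of 0.443 and 0.95. Their GC content, with a median of 48.0%, was above the 39.7% of its 8q as a whole. Both arms of chromosomes 16, 17 and 19 and the long arm of chromosome 22 in UW228, with GC medians of 45.5 to 52.0%, had relative input densities of 0.690 to 0.843, and the long arm of chromosome 20, with 45.9%, had 1.28. The part of GC content in the low input was not tested. The best split of 8q in UW228 itself fell at 140.5 Mb, with medians of 1.07 over 623 members before it and 0.590 over 25 after it, and took up 4.87% of the squared deviations, place 19 among 39 arms. In the other lines the members from 140 Mb were also GC-rich, with medians of 57.7%, 61.9% and 59.1% in MB002, D425 and HD-MB03, and had relative input densities of 1.00, 1.9 and 0.875. The bins of 8p of UW228 lay between 0.783 and 0.866, below all bins of its 8q except the last. The bins of MB002 ranged from 0.813 to 1.01 and those of HD-MB03 from 0.840 to 1.08 over both arms, with 17 enhancers in the thinnest bin of HD-MB03, at 110 to 120 Mb.

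**Figure D2:**
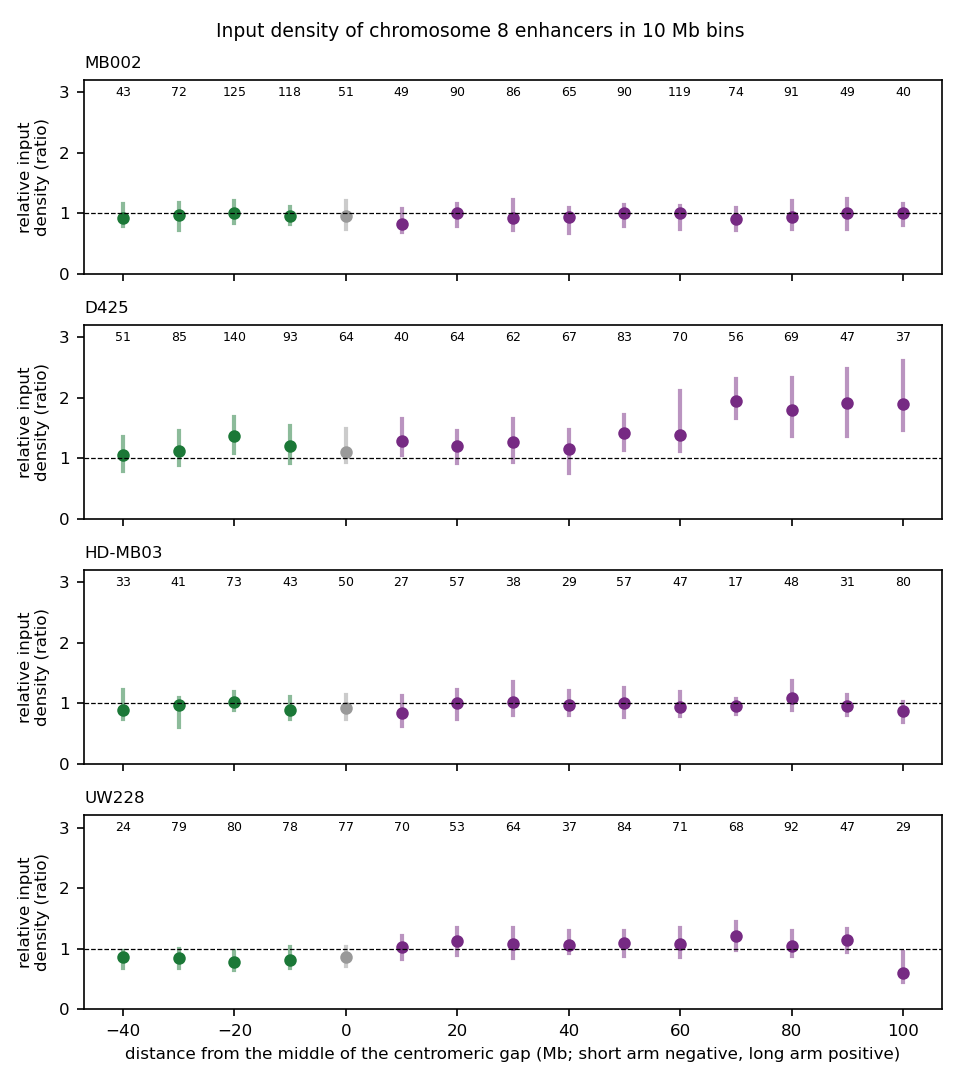
Relative input density (ratio, dashed line at 1) in bins of 10 Mb against the distance of the bin from the middle of the centromeric gap, for 8p (green), 8q (purple) and the bin across the gap (grey). Points are medians, bars run from the lower to the upper quartile of the members and the numbers above count them. D425 is above 1.79 in the last 4 bins, and UW228 is at 0.590 in the last.

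Input was also compared within the same regions. Regions were merged where enhancers of a pair of lines overlapped, and the density of D425 was set against that of each other line in turn. The 3 comparisons share the D425 libraries, and the cut at 106 Mb was chosen from the input of D425 itself. The distal counts below thus reuse the values that set the cut. On the distal part of 8q from 106 Mb, D425 had the higher relative input density in 111 of 111 regions against MB002, in 81 of 82 against HD-MB03 and in 53 of 55 against UW228. Its median was 2.3 where that of MB002 was 1.03, 2.28 where that of HD-MB03 was 0.966, and 1.92 where that of UW228 was 1.06. The median ratios to MB002, HD-MB03 and UW228 were 2.29, 2.28 and 1.85, whereas over all shared regions of the genome they were 1.21, 1.22 and 1.07. Over the genome D425 was the higher line in 4809 of 7297 regions shared with HD-MB03 (65.9%) and in 3147 of 5705 with UW228 (55.2%). MB002 was the higher in 3756 of the 11066 regions it shared with D425 (33.9%). On the proximal part of 8q the ratios were 1.53, 1.51 and 1.23, and on 8p 1.45, 1.38 and 1.33. The shared regions of 8p had 0.850 in UW228 and 1.14 in D425, and those shared with MB002 had 0.832 in UW228 and 1.02 in MB002, so 8p of UW228 was also the lower in regions that another line had called. Against MB002, UW228 was lower in 42 of 54 regions of 8p (77.8%) and in 53 of 126 of 8q (42.1%), beside 2685 of all 4803 shared regions (55.9%).

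**Figure D3:**
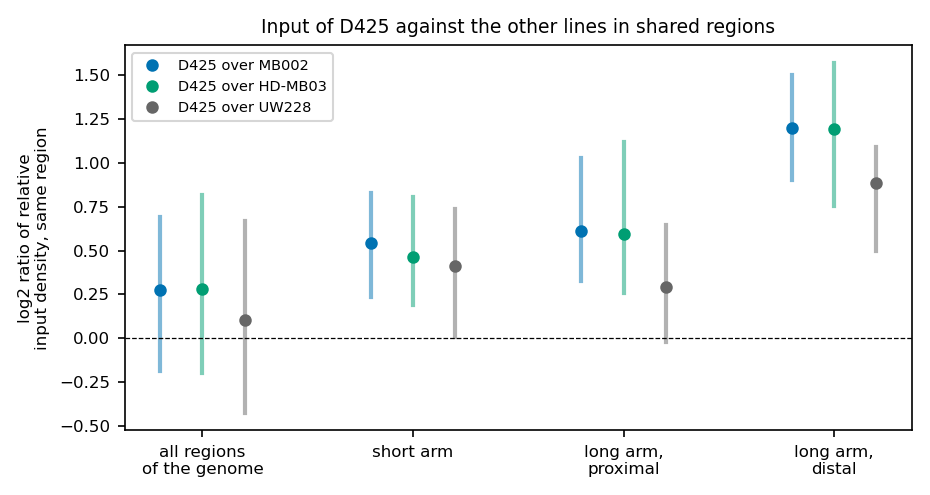
Log2 ratio of the relative input density of D425 to that of MB002, HD-MB03 and UW228 in regions where both lines had an enhancer, with medians as points and quartiles as bars. The proximal and distal parts of the long arm meet at 106 Mb, and in the distal part the median log2 ratio to HD-MB03 is 1.19, beside 0.28 over all shared regions.

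The number of enhancers per Mb was lower on 8q than on 8p by the most in D425, and nearly the same in UW228. Per Mb, 8p and 8q held 9.07 and 8.27 enhancers in MB002, 9.33 and 6.70 in D425, 5.14 and 4.82 in HD-MB03, and 6.98 and 6.96 in UW228. The mean log2 ratio of 8q to 8p was -0.18 ± 0.21 (SD, n = 4 lines), with a two-sided p of 0.13 in the exact sign-flip permutation test, the smallest it can give. D425, the line with the highest input on 8q, had the lowest ratio, 0.718. With no window left out, the log2 ratio turned to 0.036 in HD-MB03 and 0.062 in UW228. The short arm has more gene starts per Mb, 8.51 against 6.22 on 8q, and per gene start 8q held more enhancers than 8p in 3 of 4 lines. Per gene start there were 1.07 and 1.33 in MB002, 1.10 and 1.08 in D425, 0.604 and 0.775 in HD-MB03 and 0.820 and 1.12 in UW228, so the direction of the count depended on what it was divided by. All members were 4.46%, 3.91%, 4.39% and 4.57% of the enhancers of MB002, D425, HD-MB03 and UW228, with Wilson 95% intervals, for counting error only, of 4.21 to 4.71%, 3.68 to 4.15%, 4.08 to 4.73% and 4.29 to 4.86%. HD-MB03 had 80 enhancers from 140 Mb to the end of 8q, 15.6 per Mb, where the other lines had 29 to 40. These 80 were 11.9% of its members, 11.3% of them overlapped a gene start, and their relative input density was 0.875.

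The median signal of an enhancer was higher on 8p than on 8q in all 4 lines. On 8p and 8q it was 930 and 778 in MB002, 1402 and 772 in D425, 1137 and 695 in HD-MB03, and 2347 and 1675 in UW228. The mean log2 ratio of 8q to 8p was -0.58 ± 0.26 (SD, n = 4 lines), with a two-sided p of 0.13 in the exact sign-flip permutation test. Among 39 autosomal arms, the median signal of 8p had place 1 in UW228, 2 in D425, 4 in HD-MB03 and 17 in MB002, whereas 8q had places 21, 21, 34 and 29. Length moved with this difference. The median length on 8p and 8q was 1661 and 1458.5 bp for MB002, 2054 and 1322.5 bp for D425, 1813 and 1292 bp for HD-MB03, and 3299.5 and 2197.5 bp for UW228. Per bp, the median signal was 0.515 and 0.519 in MB002, 0.548 and 0.617 in D425, 0.520 and 0.510 in HD-MB03, and 0.616 and 0.654 in UW228. The mean log2 ratio per bp was 0.06 ± 0.09 (SD, n = 4 lines), and the long arm was higher in 3 of 4 lines. In HD-MB03 the long arm was lower per bp too, by a log2 ratio of -0.03. The proximal and distal parts of 8q in D425 had 0.586 and 0.684 per bp, beside relative input densities of 1.27 and 1.92, and whether copy number had a part in this was not tested.

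The summed signal per Mb was lower on 8q than on 8p in the G3-MB lines, by the most in D425, and nearly the same in UW228. It was 27601 on 8p and 20363 on 8q in MB002, 41921 and 16519 in D425, 15097 and 11446 in HD-MB03, and 29506 and 30203 in UW228. As a share of the total enhancer signal of a line, the members held 3.25%, 4.2%, 3.53% and 3.91% for MB002, D425, HD-MB03 and UW228, respectively. On 8q the median GC content was lower than on 8p in all lines, by the most in UW228, where it was 39.7% against 42.2%.

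SEs were spread unevenly over the arms. D425 had 12 SEs on 8p and 5 on 8q, MB002 had 5 and 3, HD-MB03 had 4 and 6, and UW228 had 3 and 13. As shares of the members these were 2.99% and 0.801% in D425, 1.28% and 0.390% in MB002, 1.81% and 1.34% in HD-MB03 and 1.00% and 2.01% in UW228. The background over all enhancers of the line was 1.64% in D425, 1.39% in MB002, 1.98% in HD-MB03 and 3.61% in UW228. Only 8p of D425 was above its background, and both arms of UW228 were below. In the 3 G3-MB lines 8p had the larger share and in UW228 8q had it, a difference of direction with no test. This direction depended on how enhancers were ranked. With as many top enhancers taken by signal per bp, the shares of 8p and 8q were 0.513% and 1.04% in MB002, 1.25% and 1.60% in D425 and 0.905% and 1.78% in HD-MB03, so that 8q had the larger share in these lines as in UW228, with 1.33% and 2.47%. The distal part of 8q in D425, with 225 members, held 1 SE, of rank 273 in the body of FAM135B, at a relative input density of 2.53. By signal over the input within 500 kb, 2 enhancers of 8q of D425 were at the top, and by signal without input subtraction 8, beside the 5 SEs.

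**Figure D4:**
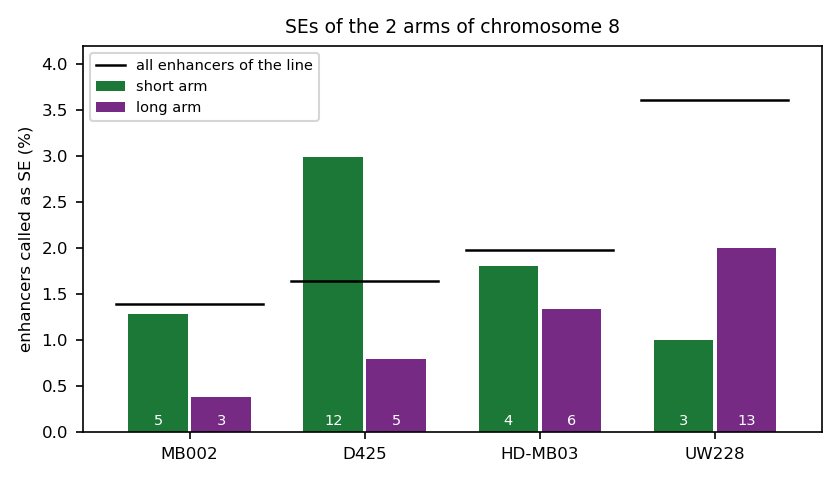
Share of the enhancers of 8p (green) and 8q (purple) that were called as SE (%), with the number of SEs in each bar and, as black lines, the share over all enhancers of the line. The bar of 8p in D425 (12 SEs, 2.99%) is above its line at 1.64%, and the other 7 bars are below theirs.

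Of the 45 merged regions of the 2 arms that held a SE, 1 was a SE in 3 lines, 4 in 2 lines and the others in 1 line, and no region was a SE in both UW228 and a G3-MB line. Over the genome outside the windows, 16.9% of 1481 such regions were a SE in at least 2 lines and 6.89% in UW228 and a G3-MB line. The region shared by the 3 G3-MB lines was that of MIR124-1 and its host gene MIR124-1HG on 8p, which encode miR-124, a microRNA abundant in neurons that favours neuronal differentiation. It was the highest-ranked enhancer of 8p in MB002, at chr8:9896241-9966690 with rank 38 and a signal of 91541, and in HD-MB03, at chr8:9901362-9910259 with rank 68 and a signal of 43223. In D425 it had rank 154 and a signal of 43104, at chr8:9902226-9931155. The start of MIR124-1 lay inside it in each of these lines, and UW228 had no enhancer there. Its relative input density was 1.05 in MB002 and 0.958 in HD-MB03, the level of the median enhancer, and 1.61 in D425. The second copy, MIR124-2, lies on 8q. It was the highest-ranked enhancer of 8q in HD-MB03, at chr8:64368415-64383129 with rank 32 and a signal of 59880, and a typical enhancer (TE) of rank 463 in MB002, and it had no enhancer in D425 or UW228.

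The 4 SE regions shared by 2 lines lay at CLU with SCARA3, at FGF17, at GASAL1 and at RGS20 with ATP6V1H, and 2 further genes, FHIP2B and EXTL3, had SEs in 2 lines through different regions. CLU, a secreted chaperone, and SCARA3, a scavenger receptor, shared a SE of rank 100 in MB002 and 216 in HD-MB03, ranked 2521 as a TE in D425 and had no enhancer in UW228. FHIP2B, on 8p, had SEs of rank 324 in MB002 and 157 in D425 and a TE of rank 548 in HD-MB03. EXTL3, an enzyme of heparan sulfate synthesis, had SEs of rank 243 in D425 and 231 in HD-MB03, and TEs of rank 423 in MB002 and 5826 in UW228. On 8q the long non-coding RNA GASAL1 had a SE of rank 111 in D425, its highest on that arm, and of rank 272 in HD-MB03, and TEs of rank 3890 in MB002 and 1653 in UW228. RGS20, a regulator of G protein signalling, and ATP6V1H, a subunit of the vacuolar proton pump, shared a SE of rank 335 in MB002 and 402 in D425. When signal was divided by the input within 500 kb, the SEs of D425 at EXTL3, FGF17 and RGS20 fell to places 603, 703 and 757, beyond its 431 SEs, so that in D425 these calls were lost, whereas those at FHIP2B, GASAL1 and MIR124-1 stayed within them.

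The remaining SEs at the top of the arms belonged to single lines. In D425 the highest SE of 8p, of rank 80, was 109694 bp long and held SMIM19 and SLC20A2, a phosphate transporter, both of which ranked between 3331 and 3694 in the other lines. It also had SEs of rank 126 and 132 near TRMT9B, of which the first overlapped DLC1, a GTPase-activating protein, and of rank 235 near LINC00588 on 8q. In MB002 SDC2, a heparan sulfate proteoglycan of the cell surface, had the highest SE of 8q, with rank 234, and TEs of rank 587, 525 and 1074 in D425, HD-MB03 and UW228. Also in MB002, SEs of rank 302 and 313 lay in the body of PSD3, with NAT2 as the closest start, and at LINC01607 with HEY1, a target of Notch. In HD-MB03 LETM2 and the histone methyltransferase gene NSD3 shared a SE of rank 168, MIR661 and PLEC, the cytoskeletal linker plectin, one of rank 163, and TRIB1, a pseudokinase, one of rank 187 that overlapped no enhancer of another line.

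In UW228 the long arm held the high ranks. A SE of 112529 bp over the end of TOX, a transcription factor of the HMG box family, had rank 26 and a signal of 108095, at chr8:58791405-58903934. The closest start was that of NSMAF, an adaptor of the TNF receptor, and the best enhancers of NSMAF in the G3-MB lines ranked 4837, 3455 and 7810. A SE of rank 44 spanned part of VXN, a gene of neuronal differentiation, and MYBL1, a transcription factor of the MYB family, and another of rank 60 held FBXO32, a subunit of a ubiquitin ligase, beside ATAD2, a chromatin ATPase. ATAD2 ranked 16424 in MB002 and 898 in D425 and had no enhancer in HD-MB03. On 8p SEs of rank 257, 292 and 512 lay at SLC25A37, an iron importer of mitochondria, at CTSB, a lysosomal protease, and at PLEKHA2 and HTRA4. The best enhancers of CTSB in MB002, D425 and HD-MB03 had ranks of 21049, 3749 and 12573, all TEs. All 28 genes that were SE-associated in UW228 through a member, 4 on 8p and 24 on 8q, had no SE member in a G3-MB line, beside 76.6% of 1532 SE-associated genes of UW228 over the genome. The 28 genes share 16 SEs.

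**Figure D5:**
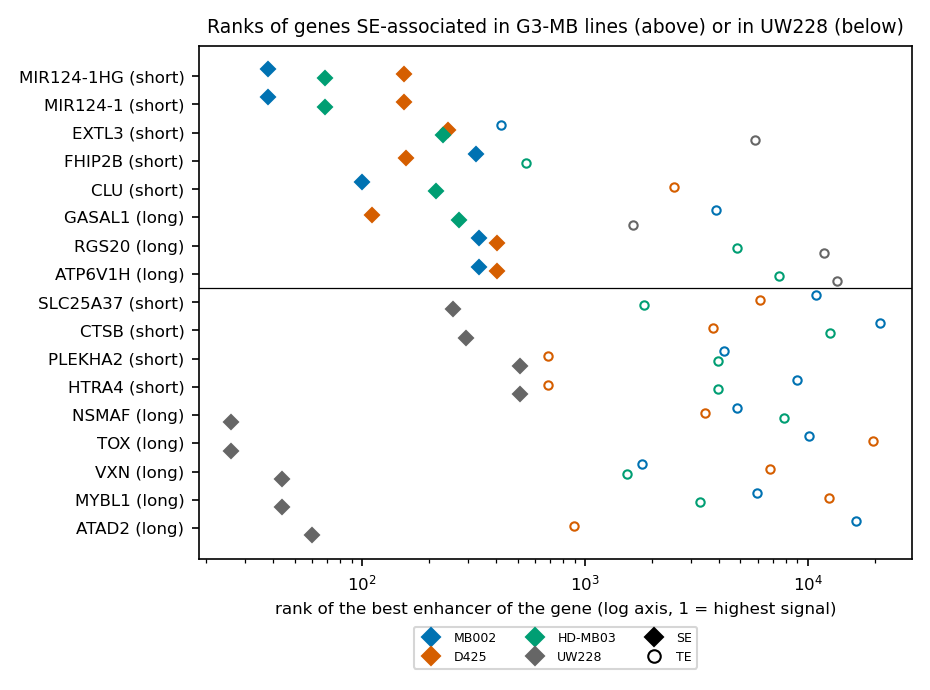
Rank of the best enhancer of each gene (log axis, 1 is the highest signal) in the 4 lines, with filled diamonds for SEs and open circles for TEs, for genes with SEs in 2 or more G3-MB lines (above the line) or in UW228 and no G3-MB line (below), each with its arm. MIR124-1 sits at ranks 38, 154 and 68 in the G3-MB lines with no point for UW228, and NSMAF at 26 in UW228 against 3455 and more in the G3-MB lines.

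A gene was assigned to an enhancer when its body overlapped it, when its start lay within 50 kb or when its start was the closest. By this rule 15 of 247 genes with an enhancer on 8p (6.07%) and 5 of 437 on 8q (1.14%) were SE-associated in MB002, beside 4.69% of all genes with an enhancer. In D425 there were 28 of 249 (11.2%) and 6 of 420 (1.43%), beside 5.89%, in HD-MB03 11 of 192 (5.73%) and 12 of 360 (3.33%), beside 5.41%, and in UW228 4 of 207 (1.93%) and 24 of 356 (6.74%), beside 9.03%. With each SE assigned to its closest gene alone, there were 5, 11, 4 and 3 such genes on 8p and 3, 5, 6 and 12 on 8q in MB002, D425, HD-MB03 and UW228. Across the G3-MB lines 40 of 302 genes of 8p (13.2%) and 20 of 541 of 8q (3.70%) had a SE in 1 line or more, beside 9.5% of all genes with an enhancer. In 2 lines or more there were 12 (3.97%) and 3 (0.555%), beside 2.25%, and in all 3 there were 2 (0.662%) and 0, beside 0.447%. The 2 genes were MIR124-1 and MIR124-1HG, which share 1 region. Neighbouring genes share SEs, so these counts are not of independent genes. On 8p 1 merged region was a SE in 3 lines and 2 were in 2 lines, and on 8q 2 were in 2 lines.

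The shares of the gene lists below are among their genes with an enhancer, to be read against the 4.69%, 5.89%, 5.41% and 9.03% of all such genes in MB002, D425, HD-MB03 and UW228. Of 37 transcription factors, 1 was SE-associated in MB002, HEY1, and 1 in D425, GRHL2, an epithelial factor. None was in HD-MB03, where MAFA and HMBOX1 came first with ranks of 507 and 778, and 4 were in UW228. These 4 were MYBL1, MSC, ZFHX4 and TRPS1, with ranks of 44, 697, 467 and 301. As shares this made 3.33% for MB002, 3.45% for D425, 0% for HD-MB03 and 19.0% for UW228. With signal divided by the input within 500 kb the calls of GRHL2 in D425 and ZFHX4 in UW228 were lost. By the same ranking CEBPD in UW228, of rank 1070, was gained at place 672 of 753. Of 38 neuronal genes, none was SE-associated in a G3-MB line, and the highest ranks were 1565 for KCNB2 and 1630 for FABP5 in MB002, 540 for CSMD3 and 906 for CHRNB3 in D425, and 1553 for VXN and 1625 for UNC5D in HD-MB03. In UW228 2 were, VXN and CRH, a releasing hormone of the hypothalamus, the latter with rank 433 through a SE 44 kb from its start, which makes 11.1%. Between 16 and 30 of the neuronal genes had a TE and 8 to 20 had no enhancer.

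Of 14 photoreceptor and retina genes, 3 were SE-associated in D425, RP1L1, a protein of photoreceptors, with rank 338, FZD3, a receptor of Wnt, with rank 243, and RGS20. In MB002 RGS20 was, and RP1L1 and FZD3 were TE-associated with ranks of 542 and 423. None was in HD-MB03, where GEM and RP1 ranked 982 and 1751, or in UW228, where RP1 and RDH10 ranked 1478 and 4992. The shares were 8.33% of 12 genes in MB002 and 30.0% of 10 in D425. All 3 calls of D425 were lost when signal was divided by the input within 500 kb, with RP1L1 at place 702 and the SEs of FZD3 and RGS20 at 603 and 757 against 431 SEs. The median best rank of the list for MB002, D425, HD-MB03 and UW228 was 2106, 2094.5, 3071 and 10882, beside medians of 8405, 6486, 4838 and 6764 over all genes with a member. The numbers are small and the list was described, not tested.

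Of 30 receptors, kinases and their antagonists, D425 had 4 that were SE-associated, MB002 3, HD-MB03 1 and UW228 none, or 16.0%, 13.6%, 6.25% and 0%. FGF17, a fibroblast growth factor, was SE-associated in MB002 and D425 through 1 shared region, with ranks of 324 and 401, of which the second was lost with signal divided by local input, and TE-associated with rank 19794 in UW228. The MAP kinase phosphatase gene DUSP4 was SE-associated in MB002 alone, with rank 336, and ranked 447 and 685 in D425 and HD-MB03. In each of these lines it was assigned only as the closest start, 160 kb from the enhancer. The others were SDC2 in MB002, BMP1, DLC1 and FZD3 in D425, with BMP1, a protease that processes procollagen, at rank 157, and TRIB1 in HD-MB03. The SE of BMP1 lay 27.7 kb from its start and is also that of FHIP2B. FZD3, listed with the retina genes too, shares its SE of rank 243 in D425 with EXTL3, so the list shares are not independent. In UW228 FGF20 and FZD6 came first, with ranks of 796 and 971. The enhancer of FGF20, 238 kb from its start, was gained at place 610 of 753 with signal divided by local input. Of 28 genes of the cell cycle and genome maintenance, only ATAD2 in UW228 was SE-associated (5.88%), and among the TE-associated genes ERI1 ranked 516 in MB002 and 443 in D425, and NSMCE2 508 in D425 and 1591 in HD-MB03. With signal divided by local input SPIDR in UW228, of rank 955, was gained at place 584 of 753. Of 24 genes of extracellular matrix and adhesion, CLU and SCARA3 were SE-associated in MB002, both with EXTL3 and PLEC in HD-MB03, EXTL3 in D425 and EXT1, a partner enzyme of heparan sulfate synthesis, in UW228 with rank 610. The calls of EXTL3 in D425 and EXT1 in UW228 were lost with signal divided by local input, and LOXL2 in UW228, of rank 866, was gained at place 565 of 753. The shares of this list in HD-MB03 and MB002, 26.7% and 10.5%, were above those of all genes, on 4 and 2 genes, and the shares in D425 and UW228, 4.55% and 5.88%, were below, on 1 gene each.

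Few of the enhancers were common to all lines. The share of members that overlapped an enhancer of another line by at least 1 bp was 54.7%, 64.9%, 71.5% and 38.9% for MB002, D425, HD-MB03 and UW228, beside 59.7%, 59.7%, 74.6% and 42.5% of all their enhancers. With an overlap of at least 50% of the member the share in UW228 was 21.2%. In UW228 the arms differed, with 49.0% of the members of 8p and 34.6% of those of 8q, and the largest gap was that with D425, 39% on 8p and 22.8% on 8q. The corresponding shares of D425 that overlapped UW228 were 26.7% and 24.0%. After merging over the 4 lines, 108 of 2430 regions (4.44%) had an enhancer in all 4, beside 5.29% over the genome. The shares were 5.4% on 8p and 4.0% on 8q. Regions of the 3 G3-MB lines without UW228 were 7.28% of the regions of chromosome 8, beside 6.6% over the genome, and regions of UW228 alone were 19.2% on 8p and 26.1% on 8q, beside 22.0%.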

How the data were processed

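ChIP was done with an antibody against H3K27Ac after crosslinking, and inputs were sequenced beside it. The authors aligned reads to GRCh38 with Bowtie2 2.3.0, called peaks with MACS2 2.2.6 and used SAMtools 1.9, per the submitters' processing notes, and stitched and ranked the peaks of each library with ROSE. The deposited signal columns hold H3K27Ac and input in library-normalized reads (rpm) per bp times length, not input-subtracted, and the deposited score is the rank, beside an SE call. Densities have 4 decimals. Library depth is unknown, so no precision from counts could be given, and intervals of medians describe spread between enhancers only.

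Ratios, arms, bins and overlaps were computed in Python 3.11.15 (pandas 2.3.3, numpy 2.4.6, scipy 1.17.1), plots with matplotlib 3.10.9 and GC content with pysam 0.24.0. Enhancer positions are given as deposited. The functions were tested on simulated data. Of 29985 curated RefSeq genes, the 27445 whose strand is in GENCODE 44 were used. Arms were those of chromosomes 1 to 22 with at least 50 enhancers, split at the largest gap between enhancers, and acrocentric chromosomes were taken as 1 arm. Chromosome X, foreseen in the plan, was left out because its largest gap is not at the centromere. With 1 library of each kind per line, no test was made within a line. Over the lines, exact sign-flip permutation tests were used, and nothing says that the lines represent their subtypes.

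The genes named were the closest genes of the 3 highest-ranked members of each arm and line, list genes that were SE-associated, up to 5 genes per arm with an SE in 2 or more G3-MB lines, or in UW228 and no G3-MB line, and the 2 first genes of lists without an SE-associated gene. Neighbours that share an SE with such a gene are named with it, and MIR124-2 was added after its values were seen in MB002. Genes at enhancers gained or lost with signal divided by local input are named too. The members and lists were chosen with earlier results of these data known, and the split at 106 Mb and the regions shared by pairs of lines were chosen after the values were seen. One gene that the rule names is not reported here. Genes within the windows, the RNA-seq data and tissue samples were not analysed here.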

Additional observations from a re-analysis of the deposited data

Results flagged for a closer look

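In UW228 the long arm had the larger share of SEs, with a log2 ratio of long to short arm of 1.00, whereas MB002 had -1.72, D425 -1.90 and HD-MB03 -0.44. The ratio rests on 3 and 13 SEs in UW228. By signal per bp the long arm had the larger share in the G3-MB lines too, with 1.04% against 0.513% in MB002, 1.60% against 1.25% in D425 and 1.78% against 0.905% in HD-MB03, and with no window left out it also had it in MB002 and HD-MB03, with 1.44% and 2.71%. The summed signal per Mb of UW228 was also slightly higher on the long arm, with a log2 ratio of 0.034, beside -0.44, -1.34 and -0.40 in the 3 G3-MB lines. Both are differences of direction between 3 lines and 1 line, and they were not tested. The relative input density also differed between the arms of UW228, by 0.35 on the log2 scale. With as many top enhancers taken by signal over the input within 500 kb, its short arm held 5 (1.67%). Its long arm held 13 (2.01%) by that ranking. The long arm of UW228 thus still had the larger share, but by less than with the SE calls. No test was made of this change, and the part of input in the summed signal per Mb was not tested.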

How the results depend on the processing

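Of 147 values recomputed under alternatives, 13 changed sign, 23 moved beyond the 95% interval of the reported value or, for counts, by over 1.5 times, and 111 did neither, although the intervals of the signal ratios are wide. Per bp, the log2 ratio of the signal of long to short arm turned to 0.013 in MB002, 0.17 in D425, 0.087 in UW228 and 0.061 in the mean, and was -0.029 in HD-MB03. With enhancers of at least 1000 bp it turned to 0.0064 in MB002. Per gene start, the log2 ratio of the number of enhancers turned to 0.32 in MB002, 0.36 in HD-MB03, 0.45 in UW228 and 0.28 in the mean, and moved to -0.024 in D425. With no window left out it turned to 0.036 in HD-MB03 and 0.062 in UW228, and the ratio of input density to 0.016 in HD-MB03. Without enhancers at gene starts the number turned to 0.035 in UW228. The ratio of input density kept its direction in D425 and UW228 under all 7 alternatives, between 0.21 and 0.36 in D425, where summed input over summed length gave 0.36, and between 0.27 and 0.36 in UW228, where division by the GC decile gave the lowest value. Taking as many top enhancers as there were SEs by signal over the input within 500 kb left 2 SEs on the long arm of D425, where those at FAM135B, RGS20 and GRHL2 were lost, and 8, beside 12, on its short arm, where those at EXTL3, RP1L1, LINC02866, MIR548V and DMTN were lost and 1 was gained. In UW228 it gave 5 on the short arm, and those at ZFHX4-AS1 and EXT1 and 1 of 2 near KLHL38 on the long arm were lost. Enhancers near SPIDR, LINC02947 and CEBPD were gained on that arm, so its number stayed at 13. Without input subtraction the long arm of D425 had 8. By signal per bp the short arm had 2, 5 and 2 in MB002, D425 and HD-MB03 and the long arm 8 and 10 in MB002 and D425. With no window left out the long arm held 12, 12 and 14 SEs in MB002, D425 and HD-MB03. Where an SE was assigned to its nearest gene alone, SE-associated genes numbered 5, 11 and 4 on the short arm of MB002, D425 and HD-MB03 and 3, 6 and 12 on the long arm of MB002, HD-MB03 and UW228. An overlap of at least 50% of the member left 37.9%, 50.9%, 57.7% and 21.2% shared with another line in MB002, D425, HD-MB03 and UW228. Replicates could not be paired, as each line had 1 library of each kind. Copy number was not measured, so input density stands in for it.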
